A study of Canis lupus familiaris with 15 samples.

Results

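Immediate-early genes and the genes of the AP-1 and NF-κB response were followed through RNA-Seq of canine osteosarcoma cells. A list of 50 symbols was matched to the gene column of the authors' 3 deposited tables, and 33 of the 50 had a row in at least 1 table, out of 7699 different symbols in all. RNA was sequenced from 15 libraries in 5 groups of 3. For both D17 and HMPOS there was an extravasated and a parental group, and POS had a parental group alone. D17 and HMPOS are canine osteosarcoma lines, and HMPOS is a sub-line of POS with a high rate of metastasis. Extravasated cells were grown out in culture from clusters that had left the blood vessels of zebrafish embryos with green fluorescent endothelium (the fli1a:EGFP transgene), into whose circulation the line had been injected, and parental cells had never been in a fish. Passage through the embryo, isolation and the later expansion were thus all borne by the extravasated cells alone and cannot be told apart.

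AP-1 is a family of dimers of FOS, JUN and related leucine zipper proteins. Several of its genes, together with those of the EGR, NR4A and IER factors, belong to the immediate-early genes. Growth factors, stress or adhesion switch these on without new protein synthesis, largely through ERK and other MAP kinases. NF-κB is a family of REL-domain dimers held inactive by IκB proteins until the IκB kinases release them, and several of its target genes, among them NFKBIA and TNFAIP3, encode inhibitors that end the response. In osteosarcoma and in bone cells, AP-1 factors are known as regulators of growth and of matrix genes.

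Each gene has a single FPKM value per group in the deposited tables (fragments scaled by transcript length in kilobases and by the number of mapped fragments), which stands for the 3 libraries of that group. Sequencing depth and the spread between libraries are therefore unknown here, no SD or test can be given, and a difference cannot be set against replicate error. Every row carries the authors' mark of significance, and a gene without a row has no value here, whether it was unchanged, low or not testable. Of the 2 group names in the extravasation tables, the one ending in meta was read as extravasated and the one ending in norm as parental, since the POS column, which can only be parental, has norm in its name. Where a pair of FPKM values is given without names, the extravasated group comes first, and in the comparison of parental lines HMPOS comes first. All directions below rest on those names. The article's account of which genes rose and fell in extravasated cells points to the opposite reading for both D17 and HMPOS, and the sources used here do not settle it. If the names were exchanged, each direction given for that extravasation table would turn. The 7 members listed in both HMPOS tables had parental HMPOS values within 0.111% of each other, so HMPOS_norm was the same group in both. If the HMPOS names were exchanged, the group set against POS would therefore be extravasated and not parental HMPOS.

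Of 9 osteoblast lineage markers, 4 had a row for D17, 5 for HMPOS and 5 for HMPOS against POS, and RUNX2 had none. Their summed level was 2215 FPKM in extravasated against 908.5 FPKM in parental D17 cells, 3125 against 1923 FPKM in HMPOS, and 1934 FPKM in HMPOS against 5384 FPKM in POS. The markers summed differ between the comparisons. The largest part came from COL1A2 in D17, at 1360 and 493.4 FPKM, and from SPARC in HMPOS and POS. BGLAP was at 27.3 FPKM in HMPOS against 676.3 FPKM in POS. SPARC was at 433.0 FPKM in extravasated against 186.9 FPKM in parental D17 cells, at 2897 and 1777 FPKM in HMPOS, and at 4439 FPKM in POS. Of all rows, 54.2% were higher in extravasated cells in D17 and 67.0% in HMPOS, and 52.3% were lower in HMPOS than in POS. Among the markers, extravasated cells had the higher value for all 4 with a row in D17 and for 4 of 5 in HMPOS. Against POS, 4 of 5 were lower in HMPOS. The exceptions were IBSP, the bone sialoprotein gene, at 0.427 FPKM in extravasated against 2.05 FPKM in parental HMPOS cells, and SP7, the gene of the osteoblast factor osterix, at 54.5 FPKM in HMPOS against 41.7 FPKM in POS. None of the 6 leukocyte markers (PTPRC, CD68, CD14, CSF1R, CD3E and ITGAM) had a row in any table, so their level is not known. Of the 4 epithelial markers, CDH1 and EPCAM were listed in D17, at a summed 3.19 FPKM in extravasated against 0.510 FPKM in parental cells, while only CDH1 was listed in HMPOS, at 3.04 and 1.49 FPKM. In parental HMPOS and POS cells, 1 of the 5 endothelial markers was listed, KDR, at 0.146 and 1.73 FPKM, and 1 epithelial marker, CDH1, at 1.49 and 4.30 FPKM. Their part in the results below was not tested.

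By the group names in the D17 table, most listed members were higher in extravasated than in parental cells, a direction that stays uncertain for the reason given above. The table held 23 of the 50 members, of which 18 had a higher and 5 a lower FPKM after extravasation. The share higher was 78.3%, against 54.2% of all 4412 rows, and the share lower was 21.7% against 45.8%. Past a fold change of 2, which is the threshold of the study's methods, 9 members were higher (39.1% of those listed, against 18.3% of all rows) and 1 was lower (4.35% against 8.50%). The median log2 ratio (extravasated over parental) was 0.70 for the members and 0.39 for all rows. Relative to the median of all rows, the same 18 members were higher and 5 lower, but 5 in place of 9 were higher past a fold change of 2. Because RNA was measured in bulk, fewer cells that express a gene and less RNA in each cell cannot be told apart.

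The AP-1 subunits of D17 moved in opposite directions. FOSL2, which encodes a FOS family subunit also called FRA2, was at 120.2 FPKM in extravasated against 48.6 FPKM in parental cells (log2 ratio 1.31). It was the most abundant listed member in D17. JUNB, a JUN family subunit, was at 34.6 and 16.6 FPKM. FOSL1, the gene of the related subunit FRA1, went the other way, with 7.82 FPKM in extravasated and 25.4 in parental cells. Its log2 ratio of -1.70 was the lowest of the 23 members, and it was the only member past a fold change of 2 in that direction. In parental D17 cells the FPKM of FOSL2 was less than 2 times that of FOSL1. The remaining AP-1 members FOS, FOSB, JUN, JUND and BATF3 had no row for D17.

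Among the other immediate-early factors, 3 of the 4 with a row were higher in extravasated D17 cells, where 54.2% of all rows were. EGR1, a zinc finger factor induced by serum and by ERK, was at 18.2 FPKM in extravasated against 6.73 FPKM in parental cells (log2 ratio 1.44). KLF10, a Krüppel-like factor first known as an early response gene of TGF-β, was at 49.4 and 23.8 FPKM. The orphan nuclear receptor gene NR4A1 had the larger ratio, 1.71 on the log2 scale, from much lower values of 0.781 and 0.238 FPKM. Both values lie below 1 FPKM, where the unknown depth matters most. KLF6, another Krüppel-like factor, was lower, at 15.8 FPKM in extravasated against 22.7 FPKM in parental cells.

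ETS factors of the PEA3 group, which receptor tyrosine kinase signalling through ERK often raises, did not share a direction in D17. ETV1 was at 20.2 FPKM in extravasated against 13.2 FPKM in parental cells, and ETV4 at 6.15 and 10.3 FPKM. The growth regulator MYC was at 35.1 and 45.9 FPKM, which at -0.39 was the smallest change on the log2 scale among the listed members of D17. None of these genes passed a fold change of 2, and ETV5 and PHLDA1 had no row. Relative to the median of all rows, MYC was at -0.77, and NFKB1 (0.02) changed least.

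All 8 listed genes for NF-κB subunits, IκB proteins and feedback regulators were higher in extravasated D17 cells, where 54.2% of all rows were. Relative to the median of all rows they stayed higher, but NFKB1 only by 0.02 and ZFP36 by 0.15 on the log2 scale. Of the subunits, RELB, which pairs with the NFKB2 product in the alternative pathway, was at 26.1 FPKM in extravasated against 10.2 FPKM in parental cells (log2 ratio 1.35). NFKB2 itself was at 35.7 and 22.4 FPKM, and NFKB1, whose product serves the classical pathway, at 8.20 and 6.19 FPKM. RELB was the only subunit past a fold change of 2. RELA and REL, the other subunits with a transactivation domain, had no row in any of the 3 tables.

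The listed genes for IκB proteins and feedback regulators were higher as well. NFKBIA, which encodes the classical inhibitor IκBα, was at 28.2 FPKM in extravasated against 17.2 FPKM in parental cells. TNFAIP3, whose product edits ubiquitin chains and ends signalling from TNF receptors, was at 4.55 and 2.91 FPKM. BCL3, a nuclear IκB protein that acts with NFKB1 and NFKB2 products at promoters, was at 24.2 and 13.1 FPKM. ZFP36 and ZFP36L1 encode RNA-binding proteins that bind AU-rich elements and speed the decay of cytokine and immediate-early transcripts. ZFP36 was at 14.4 and 9.98 FPKM, and ZFP36L1 at 74.0 and 22.5 FPKM (log2 ratio 1.72, the second largest of the 23 members by size).

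Of the receptor, adaptor and effector genes, CD40 had the largest log2 ratio by size of any member in D17. The TNF receptor family member that it encodes activates both NF-κB pathways, and it was at 3.10 FPKM in extravasated against 0.733 FPKM in parental cells (log2 ratio 2.08). That rank depends on the low parental value. With 1 FPKM added to both values the ratio was 1.24, below the 1.68 of ZFP36L1. Relative to the median of all rows, FOSL1 (-2.09) changed more than CD40 (1.69). TRAF1, an adaptor gene that NF-κB induces, was at 0.648 and 0.239 FPKM, below 1 FPKM in both groups. BIRC3, the gene of a ubiquitin ligase bound by TRAF2, was at 5.92 and 3.63 FPKM, and the TNF-inducible gene TNFAIP2 at 6.54 and 4.86 FPKM. The adaptor gene TRAF2 was lower, at 12.5 FPKM in extravasated against 16.7 FPKM in parental cells.

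**Figure D1:**
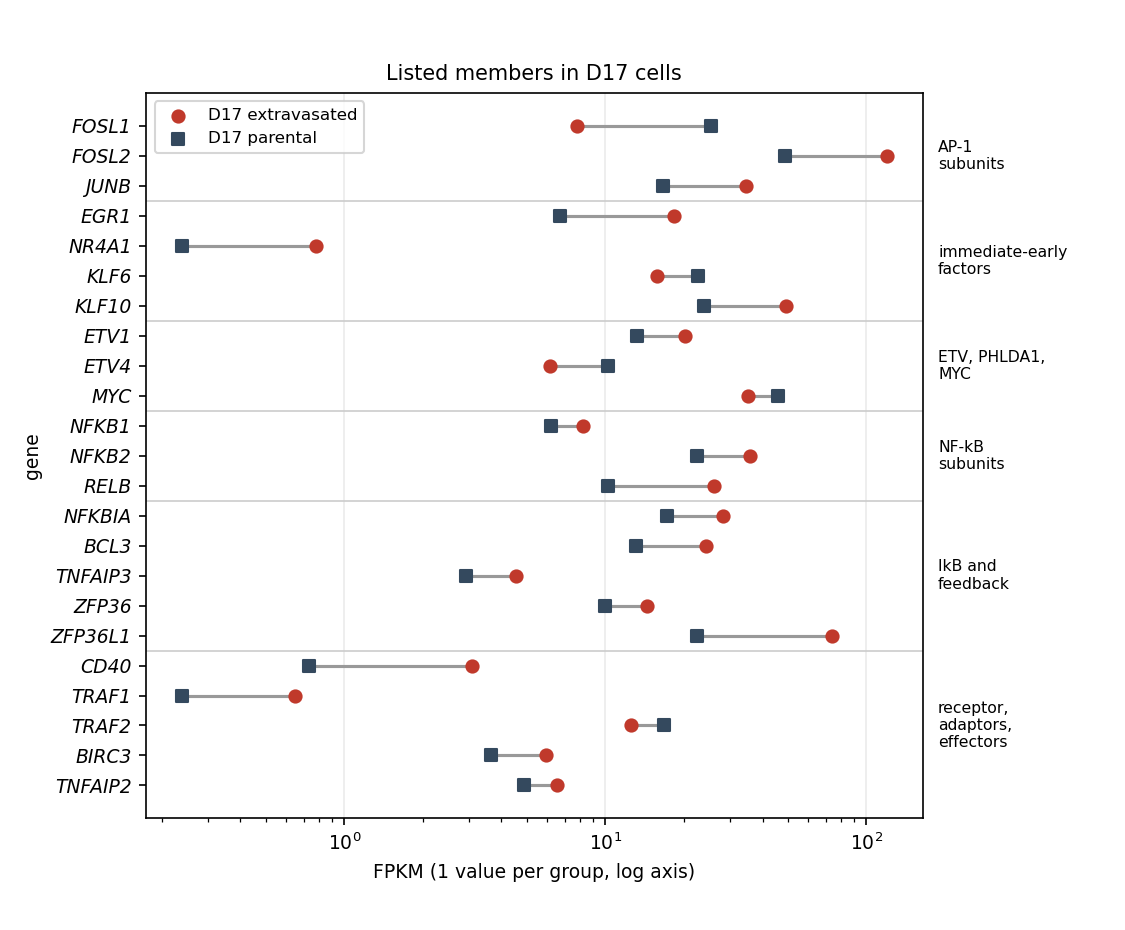
FPKM on a log axis for the 23 members listed in D17, ordered by role, with 1 point for the extravasated group (circles) and 1 for the parental group (squares). No error bars are drawn because each point is the authors' single value for 3 libraries. The circles lie to the right of the squares for 18 genes, and FOSL1, KLF6, ETV4, MYC and TRAF2 are the 5 exceptions.

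In HMPOS, few members were listed, and 3 of these were AP-1 genes. The table held 8 of the 50 members, 7 higher and 1 lower in extravasated cells by the group names, with the same uncertainty of direction as in D17. The share higher was 87.5%, against 67.0% of all 1189 rows, and the share lower was 12.5% against 33.0%. Past a fold change of 2, 3 members were higher (37.5% of those listed, against 20.5% of all rows) and 1 was lower (12.5% against 4.79%). With 8 genes, 1 gene moves a share by 12.5 points. The median log2 ratio was 0.79 for the members and 0.58 for all rows, and relative to the latter 6 members were higher and 2 lower, with 0 in place of 3 higher past a fold change of 2.

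Of the AP-1 genes, JUN, the founding partner of FOS, was at 87.7 FPKM in extravasated against 39.8 FPKM in parental HMPOS cells (log2 ratio 1.14). FOSL1 was at 4.92 and 2.33 FPKM (log2 ratio 1.08), and FOSL2 at 42.8 and 29.8 FPKM (log2 ratio 0.52). All 3 AP-1 genes with a row were thus higher in extravasated cells, where 67.0% of all rows were. FOSL2 alone among the 8 members fell to the other side (-0.06) once the median of all rows was subtracted.

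PHLDA1, a pleckstrin homology-like gene induced by ERK signalling, changed most, with 15.2 FPKM in extravasated and 5.30 in parental HMPOS cells (log2 ratio 1.52). ETV5, of the PEA3 group, was at 4.08 and 2.59 FPKM in extravasated and parental cells. The orphan nuclear receptor gene NR4A2 was the only member that was lower, at 0.719 FPKM in extravasated against 1.52 FPKM in parental cells (log2 ratio -1.08). Like NR4A1 in D17, it changed at a low level. The top rank of PHLDA1 depends on the scale, since relative to the median of all rows NR4A2 (-1.67) changed more by size than PHLDA1 (0.94).

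Few NF-κB members had a row in HMPOS, although 7 of 28 further NF-κB targets outside the member list did, as given below. None of the 5 subunit genes and none of the IκB genes had a row. TNFAIP2 was at 20.7 FPKM in extravasated against 11.2 FPKM in parental cells, and the RNA decay factor gene ZFP36L1 at 44.8 and 27.7 FPKM. Whether NF-κB genes changed less in HMPOS than in D17 was not tested, since genes without a row have no value here and the HMPOS table is the shortest of the 3.

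D17 and HMPOS shared 4 listed members, which are 17.4% of the 23 in D17 and 50.0% of the 8 in HMPOS. The 614 genes shared by the whole tables are 13.9% and 51.6% of their rows, so the overlap of the members was near that of all genes. FOSL2, TNFAIP2 and ZFP36L1 were higher after extravasation in both lines, and FOSL1 was lower in D17 and higher in HMPOS. Over these 614 genes, 87.1% had the same direction in both lines. FOSL1 is thus 1 of the 12.9% that did not, and the difference between the lines was not itself tested. The tables were normalized separately, so D17 levels are not compared with HMPOS levels. By the authors' positions on CanFam3.1, FOSL1 (ENSCAFG00000013132) lies at chr18:51368351-51373748, FOSL2 (ENSCAFG00000005212) at chr17:22336396-22360772, TNFAIP2 (ENSCAFG00000018188) at chr8:70965775-70981152 and ZFP36L1 (ENSCAFG00000016497) at chr8:42664949-42673334. The tables do not say if positions start at 0 or 1.

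**Figure D2:**
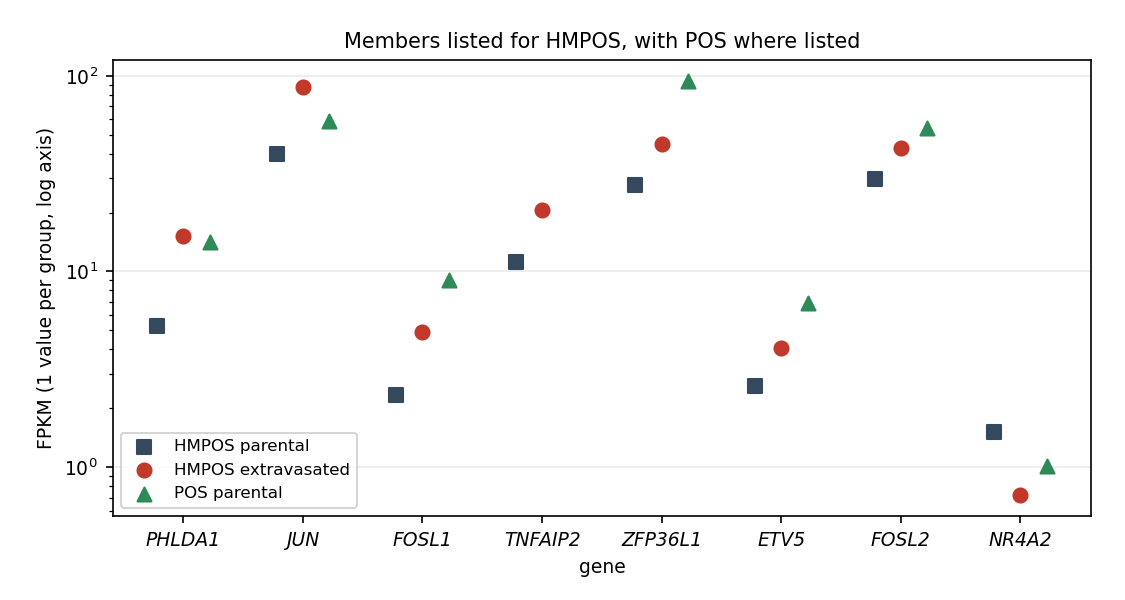
FPKM on a log axis for the 8 members listed in HMPOS, ordered from the highest to the lowest log2 ratio, in parental HMPOS (squares), extravasated HMPOS (circles) and, where listed in the second table, POS cells (triangles). Each point is the authors' single value for a group. PHLDA1 has its circle at 15.2 FPKM and its square at 5.30 FPKM, and NR4A2 alone has its circle below its square.

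Most listed members were lower in parental HMPOS than in parental POS cells, that is, in the highly metastasizing sub-line than in the line it came from. That the HMPOS group is the parental one rests on the group names, with the uncertainty given above. The table held 28 of the 50 members, 4 higher and 24 lower in HMPOS. The share lower was 85.7%, against 52.3% of all 5746 rows, and the share higher was 14.3% against 47.7%. Past a fold change of 2, 15 members were lower (53.6% of those listed, against 19.1% of all rows) and 1 was higher (3.57% against 8.49%). The median log2 ratio of HMPOS over POS was -1.13 for the members and -0.31 for all rows, and no member changed direction relative to the latter.

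All 6 listed AP-1 genes were lower in HMPOS than in POS. FOS was at 2.49 FPKM in HMPOS against 11.8 FPKM in POS (log2 ratio -2.25). FOSL1 was at 2.33 and 9.09 FPKM, and BATF3, a small partner of JUN proteins, at 2.20 and 4.73 FPKM. These 3 genes, the least abundant AP-1 members, passed a fold change of 2, as did 19.1% of all rows in that direction, while the more abundant ones changed less. FOSL2 was at 29.8 and 54.3 FPKM, JUN at 39.7 and 58.8 FPKM, and JUNB at 15.5 and 21.9 FPKM. FOSB and JUND had no row in any table.

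Of the other immediate-early factors, EGR1 was at 5.29 FPKM in HMPOS against 27.0 FPKM in POS (log2 ratio -2.35), and EGR2, a relative of EGR1, at 0.234 and 0.875 FPKM. IER2, a short nuclear protein gene of the early response, was at 20.2 and 39.0 FPKM, and KLF10 at 39.3 and 57.0 FPKM. The NR4A genes ran against these. NR4A1 was at 2.76 FPKM in HMPOS against 1.80 FPKM in POS, and NR4A2 at 1.52 and 1.01 FPKM, neither past a fold change of 2.

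The 3 PEA3 genes and PHLDA1 were each more than 2 times lower in HMPOS, where 19.1% of all rows were. Of the PEA3 genes and PHLDA1, ETV1 differed most, with 0.991 FPKM in HMPOS against 8.75 FPKM in POS (log2 ratio -3.14). ETV4 was at 7.63 and 20.7 FPKM, ETV5 at 2.58 and 6.87 FPKM, and PHLDA1 at 5.29 and 14.1 FPKM. MYC had the smallest log2 ratio by size of the 28 members and was higher in HMPOS, at 53.7 against 38.3 FPKM. Relative to the median of all rows, it was at 0.79, and JUNB (-0.20) changed least.

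On the NF-κB side, all 8 listed subunit, IκB and feedback genes were lower in HMPOS, where 52.3% of all rows were. RELB was at 6.37 FPKM in HMPOS against 14.1 FPKM in POS, and NFKB2 at 8.31 and 14.4 FPKM. BCL3 had the largest log2 ratio by size of all 28 members, with 0.298 FPKM in HMPOS against 3.36 FPKM in POS (log2 ratio -3.50). That rank depends on the low HMPOS value. With 1 FPKM added to both values the ratio was -1.75, smaller by size than the 2.55 of PTGES. Relative to the median of all rows, PTGES (3.41) also changed more than BCL3 (-3.19). TNFAIP3 was at 0.631 and 4.08 FPKM (log2 ratio -2.69). The nuclear, inducible IκB gene NFKBIZ was at 0.998 and 2.43 FPKM, and the more abundant NFKBIA at 20.0 and 33.6 FPKM. The median log2 ratio was -1.53 for the 6 listed IκB and feedback genes and -0.97 for the 2 listed subunits, and this difference was not tested. ZFP36L1 was at 27.6 FPKM in HMPOS against 94.3 FPKM in POS, and ZFP36 at 3.00 and 5.97 FPKM, which is 1.99-fold and so just short of the threshold.

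Among the adaptors and effectors, BIRC3 was at 0.648 FPKM in HMPOS against 2.62 FPKM in POS, and TRAF2 at 17.5 and 27.4 FPKM. PTGES, the gene of the enzyme that makes prostaglandin E2 from the product of PTGS2, was the 1 member past a fold change of 2 that was higher in HMPOS. It was at 15.1 FPKM in HMPOS against 1.75 FPKM in POS (log2 ratio 3.11). The span deposited for PTGES, chr9:54036502-54224620 on CanFam3.1, overlaps that of PRRX2, which went the other way at 36.6 and 54.5 FPKM, and how reads in shared sequence were assigned is not given in the sources used here. PTGS2 had no row in any table.

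**Figure D3:**
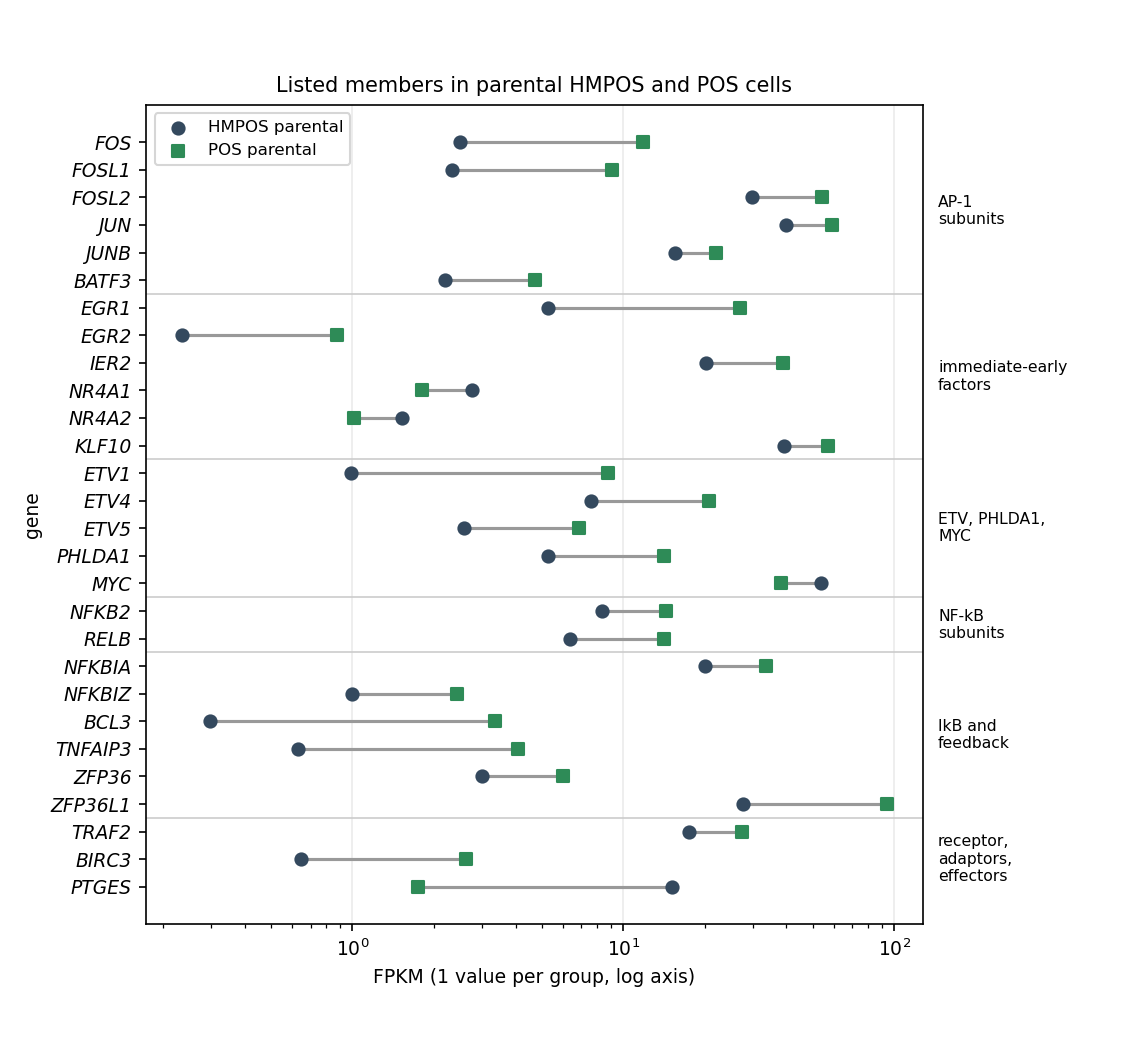
FPKM on a log axis for the 28 members listed for parental HMPOS (circles) against parental POS cells (squares), ordered by role, each point being the authors' single value for a group. The squares lie to the right for 24 genes, and NR4A1, NR4A2, MYC and PTGES are the 4 exceptions.

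For 7 members, values could be set side by side in the 3 groups of the HMPOS lineage, although both comparisons share the parental HMPOS libraries, so their ratios are not independent. Which HMPOS group is parental and which extravasated again rests on the group names. PHLDA1 was at 5.30 FPKM in parental HMPOS, 15.2 FPKM in extravasated HMPOS and 14.1 FPKM in POS cells. JUN was at 39.8, 87.7 and 58.8 FPKM in the same order, FOSL1 at 2.33, 4.92 and 9.09 FPKM, and ZFP36L1 at 27.7, 44.8 and 94.3 FPKM. FOSL2 was at 29.8, 42.8 and 54.3 FPKM, ETV5 at 2.59, 4.08 and 6.87 FPKM, and NR4A2 at 1.52, 0.719 and 1.01 FPKM. For JUN and PHLDA1 the extravasated HMPOS value lay above that of POS, and for FOSL1, FOSL2, ETV5, ZFP36L1 and NR4A2 below it. The extravasated and POS values come from tables normalized separately, and the difference between them was not tested.

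D17 extravasation and the comparison of HMPOS with POS share no libraries and have 18 listed members in common, which are 78.3% of the 23 and 64.3% of the 28, where the genes shared by the whole tables are 59.5% and 45.6% of their rows. Of these, 13 were higher in extravasated than in parental D17 cells and lower in HMPOS than in POS, namely BCL3, BIRC3, EGR1, ETV1, FOSL2, JUNB, KLF10, NFKB2, NFKBIA, RELB, TNFAIP3, ZFP36 and ZFP36L1. Opposite signs in the 2 tables were found for 77.8% of the members and for 77.9% of all 2623 genes listed in both. The pattern therefore belongs to the tables as a whole and is not particular to these genes. The combination of higher in extravasated D17 and lower in HMPOS held for 72.2% of the members and 42.5% of all such genes, which follows the direction of the members in each table.

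**Figure D4:**
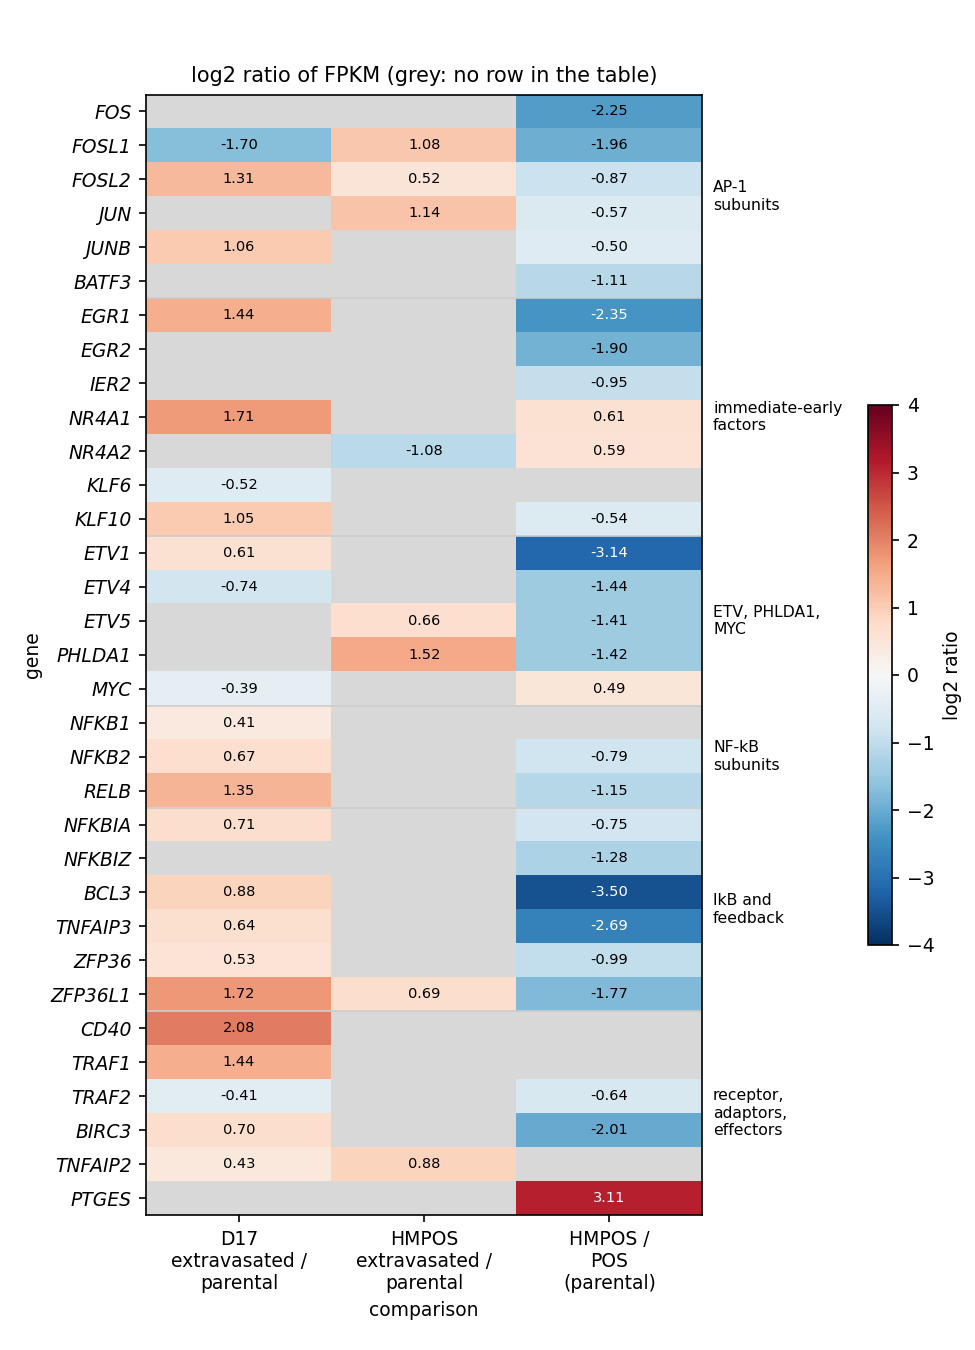
Log2 ratio of the FPKM values of 33 members (rows, by role) in the 3 comparisons (columns), with red for higher in the first-named group, blue for lower and grey where the gene had no row. FOSL1, FOSL2 and ZFP36L1 are the 3 members with a value in every column, and the third column is blue for 24 of its 28 values.

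In all, 3 members were listed in all 3 tables, 20 in 2 tables and 10 in 1 table. The same split was not made for all 7699 symbols, so it is not known if that of the members differs. The 17 members without a row were FOSB, JUND, EGR3, IER3, IER5, NR4A3, KLF2, KLF4, REL, RELA, NFKBIB, NFKBIE, ZC3H12A, TNF, TNFAIP8, PTGS2 and SOD2. They include TNF, the cytokine that gives the TNFAIP genes their name, and SOD2, a standard NF-κB target. JUN has a deposited span of 84181 bases, but no other listed gene overlapped it.

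**Figure D5:**
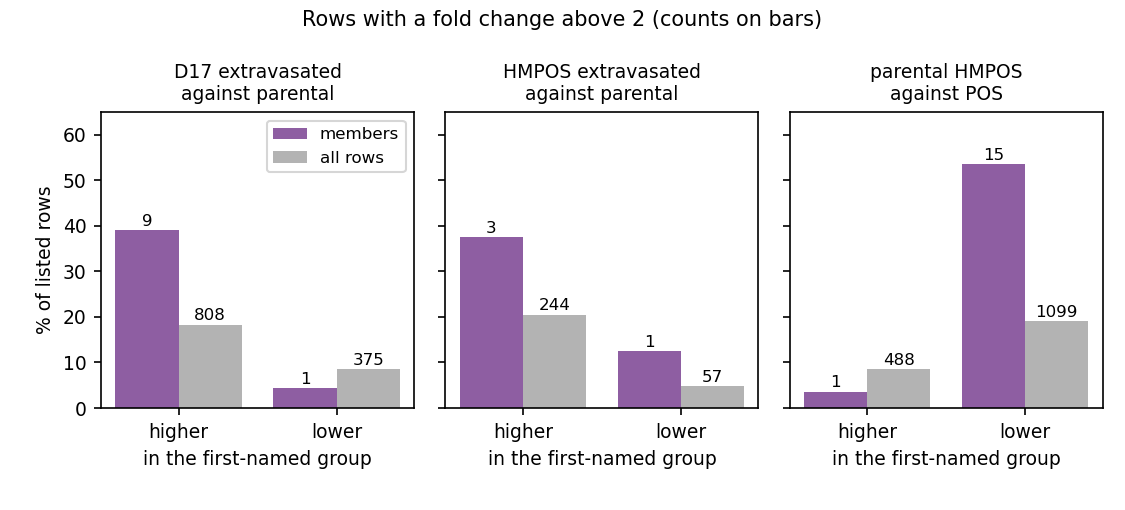
Percent of listed rows with a fold change above 2 in each comparison, for members (purple) and for all rows (grey), with the number of genes above each bar. In D17, 39.1% of members against 18.3% of all rows were higher in extravasated cells, and 53.6% against 19.1% were lower in HMPOS than in POS.

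Other genes of these pathways were counted from 5 lists of 132 symbols that hold no member, a few of them older names of the same gene. Like the members, the lists were chosen with earlier results of these data known, so their shares are no independent check. In D17, 44 of the 132 were listed, 34 higher and 10 lower in extravasated cells. In HMPOS, 17 were listed, 16 higher and 1 lower, and against POS, 58 were listed, 10 higher and 48 lower in HMPOS. Past a fold change of 2, 18 were higher and 2 lower in D17, 3 and 0 in HMPOS, and 2 and 19 in HMPOS against POS. At any fold change, 77.3% of the listed genes were higher in D17 against 54.2% of all rows, 94.1% in HMPOS against 67.0%, and 82.8% were lower in HMPOS than in POS against 52.3%. Past a fold change of 2, the share higher was 40.9% in D17 against 18.3% of all rows, but in HMPOS it was 17.6% and thus no larger than the 20.5% of all rows. The share lower in HMPOS than in POS past that threshold was 32.8% against 19.1%. Median log2 ratios were 0.68, 0.78 and -0.74 in the 3 tables, where all rows had 0.39, 0.58 and -0.31.

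Upstream of NF-κB, 14 of 37 receptor, adaptor and IκB kinase genes were listed in D17, 9 higher and 5 lower. The share higher, 64.3%, was near the 54.2% of all rows. The receptor genes IL1R1, for interleukin-1, and TNFRSF1B, for TNF, had the largest ratios. IL1R1 was at 7.41 FPKM in extravasated against 1.81 FPKM in parental D17 cells, and TNFRSF1B at 1.43 and 0.348 FPKM. In HMPOS, IL1R1 was the 1 listed gene of the 37, at 7.89 and 4.88 FPKM. Against POS, 19 were listed, 5 higher and 14 lower in HMPOS (73.7% lower, against 52.3% of all rows). IL1R1 was at 4.88 FPKM in HMPOS against 62.4 FPKM in POS, and the adaptor gene MYD88 at 17.8 and 65.1 FPKM.

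Of 28 further NF-κB targets, all 10 listed in D17 and all 7 listed in HMPOS were higher in extravasated cells, where 54.2% and 67.0% of all rows were. Past a fold change of 2, 7 were higher in D17 (70.0%, against 18.3% of all rows) and 3 in HMPOS (42.9%, against 20.5%). The chemokine gene CCL5 was at 50.1 FPKM in extravasated against 6.26 FPKM in parental D17 cells, and the adhesion molecule gene VCAM1 at 1.40 and 0.104 FPKM. In HMPOS, CCL5 was at 2.27 and 0.391 FPKM, and the chemokine gene CCL2 at 13.1 and 4.36 FPKM. Against POS, 7 of 9 listed targets were lower in HMPOS (77.8%, against 52.3% of all rows). CCL5 was at 0.391 and 7.84 FPKM and CFLAR, an inhibitor of caspase-8 activation, at 11.5 and 62.5 FPKM. Several of these genes also answer to interferon.

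Of 34 symbols of other immediate-early genes, 15 were listed in D17 (11 higher and 4 lower), 8 in HMPOS (7 and 1) and 17 in HMPOS against POS (1 and 16). The share higher was 73.3% in D17 and 87.5% in HMPOS, against 54.2% and 67.0% of all rows. Against POS, 94.1% were lower in HMPOS, where 52.3% of all rows were. Past a fold change of 2, 33.3% were higher and 13.3% lower in D17, against 18.3% and 8.50% of all rows. In HMPOS 0 passed it, where 20.5% of all rows were higher. Against POS, 47.1% were lower past it and 5.88% higher, against 19.1% and 8.49%. TRIB1, which encodes a pseudokinase, was at 10.5 FPKM in extravasated against 3.06 FPKM in parental D17 cells, and EREG, an EGF receptor ligand gene, was lower, at 0.399 and 1.73 FPKM. In HMPOS, ERRFI1, a feedback inhibitor of the EGF receptor, was at 46.4 and 23.8 FPKM, and the Krüppel-like factor gene KLF11 at 15.0 and 8.42 FPKM. THBS1, the thrombospondin-1 gene, was at 5.01 FPKM in HMPOS against 53.7 FPKM in POS, and CTGF, a matricellular growth factor gene, at 0.329 and 1.86 FPKM.

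Kinases and partners were few in the extravasation tables. Of 18 AP-1 partners and stress kinases, 4 were listed in D17 and all 4 were higher, where 54.2% of all rows were. The JNK gene MAPK10 was at 7.42 FPKM in extravasated against 1.26 FPKM in parental cells, and the AP-1 partner gene BATF2 at 12.6 and 5.24 FPKM. In HMPOS, 1 was listed, the partner gene JDP2, at 46.1 and 27.4 FPKM. Against POS, 7 were listed, 1 higher and 6 lower in HMPOS (85.7% lower, against 52.3% of all rows). The small MAF gene MAFF was at 0.522 and 2.77 FPKM and BATF2 at 2.18 and 5.85 FPKM. Of 16 symbols for SRF, its partners and the ERK arm, 1 was listed in D17, the ribosomal S6 kinase gene RPS6KA1, at 13.3 FPKM in extravasated against 21.4 FPKM in parental cells, and 0 in HMPOS. Against POS, 6 were listed, 1 higher and 5 lower in HMPOS (83.3% lower, against 52.3% of all rows). The SRF partner gene ELK4 was at 3.61 and 8.71 FPKM and RPS6KA2 at 5.89 and 10.8 FPKM.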

How the data were processed

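RNA-Seq of 15 libraries of canine osteosarcoma lines was analysed from 3 tables of differentially expressed genes. The submitters' processing notes name Trimmomatic 0.38, TopHat2, Cufflinks, Cuffdiff and the build CanFam3.1, whereas the article's methods name STAR, voom and limma, and the tables have the columns of Cuffdiff. The authors deposited 1 FPKM value per group, pooling 3 libraries, with only rows marked significant (0 rows lacked the mark). The tables also hold the authors' fold changes, test statistics, p-values and q-values, none of which were used. Columns of single samples left unused numbered 0.

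Log2 ratios were computed from the group values with no pseudocount, and counted at any fold change and above 2. Every member with a row was named; of each further list, the 2 rows per table with the largest log2 ratio by size and at least 1 FPKM in the higher group were named. Members and lists were chosen with earlier results of these data known. Counting was tested on simulated data. No sequences of these genes were used. Alternatives were other folds (any and 1.5), at least 1 FPKM, a pseudocount of 1 FPKM and centring on the median. Python 3.11.15, numpy 2.4.6, pandas 2.3.3 and matplotlib 3.10.9 were used.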

Additional observations from a re-analysis of the deposited data

How the results depend on the processing

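The fold threshold and centring moved the counts of members most. At any fold change, 18 members were higher and 5 lower in D17, 7 higher in HMPOS, and 4 higher and 24 lower in HMPOS against POS. Above a fold change of 1.5, 15 were higher and 2 lower in D17, 6 higher in HMPOS, and 3 higher in HMPOS against POS. After centring on the median of all rows, 5 were higher and 2 lower past a fold change of 2 in D17 and 0 were higher in HMPOS, and the median log2 ratios of the members became 0.32, 0.21 and -0.82 in D17, HMPOS and HMPOS against POS. Since every row had passed the authors' test, this median cannot stand for genes at rest. A pseudocount of 1 FPKM gave medians of 0.58, 0.75 and -0.84 and left 0 members lower past a fold change of 2 in HMPOS, where NR4A2 was still lower, with a log2 ratio of -0.55. With at least 1 FPKM in the higher group the medians were 0.67 in D17 and -1.11 in HMPOS against POS. No median changed sign under these alternatives, and the other counts stayed within 1.5 times of their main value.

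No paired analysis was possible because each group has a single FPKM value for its 3 libraries, although the libraries are numbered 1 to 3 in each group. Leaving out each replicate in turn was not run for the same reason. The unknown depth limits NR4A1 and TRAF1 in D17 and EGR2 in HMPOS and POS most, which were below 1 FPKM in both groups.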

Other observations

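Some members lie close together on the chromosomes of CanFam3.1. RELB, at chr1:110437106-110466585, and BCL3, at chr1:110620876-110628648, are 154 kb apart. Both were higher in extravasated than in parental D17 cells, by 1.35 and 0.88 on the log2 scale, and both had a lower value in HMPOS than in POS, with log2 ratios of -1.15 and -3.50. Of the other genes listed within 1 Mb of the pair, 13 of 20 were higher in extravasated D17 cells, with a median log2 ratio of 0.51. Of all rows for D17, 54.2% were higher, with a median of 0.39. Within the same 1 Mb, 14 of 20 had less FPKM in HMPOS than in POS (median -0.41), where 52.3% of all rows did (median -0.31). IER2, at chr20:49072233-49072902, and JUNB, at chr20:49359386-49360442, are 286 kb apart and both had less FPKM in HMPOS than in POS, at log2 ratios of -0.95 and -0.50. Whether neighbouring genes moved together beyond the rest of their chromosome was not tested.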
